A study of Mus musculus with 30 samples.

Results

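The immediate early genes described here are 34 genes, most of them for transcription factors, phosphatases, RNA-decay factors and signalling brakes. Others encode a synaptic protein (Arc) and a small GTPase (Rhob). Transcription of such genes typically starts within minutes of a stimulus. The members were picked by gene symbol from the deposited count table, and all 34 were found among its 51752 genes. The members are Fos, Fosb, Fosl2, Jun, Junb, Jund, Egr1, Egr2, Egr3, Egr4, Ier2, Ier3, Ier5, Atf3, Nr4a1, Nr4a2, Nr4a3, Dusp1, Dusp2, Dusp5, Dusp6, Btg2, Zfp36, Klf2, Klf4, Klf6, Rhob, Nfkbiz, Nfkbia, Cebpb, Gadd45b, Gadd45g, Arc and Npas4. They were followed in 15 mice, each of which gave 1 library of whole forebrain and 1 library of cells pulled from the opposite hemisphere with magnetic beads against CD11b, a surface integrin of microglia and other myeloid cells. The design asks what loss of interleukin-34 (IL-34), a neuron-made ligand of the microglial receptor Csf1r, does to brain and microglia. In the genotype experiment 4 mice heterozygous for Il34 (Het, 2 male and 2 female) were the controls for 3 mice without Il34 (KO, 1 male and 2 female). The Het controls therefore carried 1 disrupted copy of Il34. In the antibody experiment wild-type mice received a blocking antibody against IL-34 (anti-IL34, 3 male and 1 female) or the control antibody anti-gp120 (2 male and 2 female), which is directed against a viral envelope protein. All mice were perfused with saline before dissection. Ages, antibody doses and times of treatment were not given in the sources used here.

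Immediate early genes are transcribed from pre-existing factors, chiefly SRF with its ternary complex partners and CREB, which kinases of the MAPK and calcium pathways activate without new protein synthesis. In the forebrain, Fos, Arc, Npas4 and the Egr genes are the usual readouts of recent neuronal firing. In microglia, many of the same genes are known to respond to inflammatory signals and to the dissociation of the tissue itself, and several of the encoded proteins, such as the Dusp phosphatases, Zfp36 and Nfkbia, switch the response off again.

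As described below, Fos, Atf3, Dusp1 and Zfp36 were higher in the isolates, and Npas4 and Egr4 were higher in whole forebrain. The promoter sequences of these 6 members are shown. Each runs from 250 bases before to 50 bases after the RefSeq start on GRCm38.p6, 5′ to 3′ along the gene: chr12:85473640-85473939 (plus strand) for Fos, chr1:191183284-191183583 (minus strand) for Atf3, chr17:26508423-26508722 (minus strand) for Dusp1, chr7:28379179-28379478 (minus strand) for Zfp36, chr19:4989922-4990221 (minus strand) for Npas4 and chr6:85513540-85513839 (minus strand) for Egr4. Capitals mark the CREB site TGACGTCA or its shorter form TGACG, the TATA box TATAAA and the CArG box bound by SRF, each on either strand.
Fos: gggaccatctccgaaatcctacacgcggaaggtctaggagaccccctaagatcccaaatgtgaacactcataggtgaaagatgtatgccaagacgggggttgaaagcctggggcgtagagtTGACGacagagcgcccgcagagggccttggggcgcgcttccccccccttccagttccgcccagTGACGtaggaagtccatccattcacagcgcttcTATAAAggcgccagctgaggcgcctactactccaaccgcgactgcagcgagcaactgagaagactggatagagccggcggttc
Atf3: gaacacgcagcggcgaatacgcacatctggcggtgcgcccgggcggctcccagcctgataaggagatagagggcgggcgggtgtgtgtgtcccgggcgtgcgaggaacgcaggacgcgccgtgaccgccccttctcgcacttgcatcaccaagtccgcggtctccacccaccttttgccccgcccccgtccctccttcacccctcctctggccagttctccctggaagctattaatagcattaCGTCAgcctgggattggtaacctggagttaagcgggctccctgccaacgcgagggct
Dusp1: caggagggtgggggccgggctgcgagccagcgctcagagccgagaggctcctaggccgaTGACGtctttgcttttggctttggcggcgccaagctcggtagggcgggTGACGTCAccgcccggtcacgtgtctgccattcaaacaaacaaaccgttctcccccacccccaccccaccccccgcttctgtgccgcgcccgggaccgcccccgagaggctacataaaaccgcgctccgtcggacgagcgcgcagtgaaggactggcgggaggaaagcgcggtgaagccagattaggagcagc
Zfp36: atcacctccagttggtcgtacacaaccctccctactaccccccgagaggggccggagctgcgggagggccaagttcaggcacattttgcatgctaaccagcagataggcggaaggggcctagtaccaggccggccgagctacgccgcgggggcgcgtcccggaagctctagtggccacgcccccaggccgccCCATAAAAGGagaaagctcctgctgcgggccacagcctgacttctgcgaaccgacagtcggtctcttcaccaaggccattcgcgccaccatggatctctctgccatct
Npas4: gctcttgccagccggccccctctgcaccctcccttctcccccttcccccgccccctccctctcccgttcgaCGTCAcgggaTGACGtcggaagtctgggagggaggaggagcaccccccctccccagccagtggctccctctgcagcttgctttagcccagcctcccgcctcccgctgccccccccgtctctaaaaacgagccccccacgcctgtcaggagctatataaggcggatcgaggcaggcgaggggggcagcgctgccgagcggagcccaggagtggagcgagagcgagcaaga
Egr4: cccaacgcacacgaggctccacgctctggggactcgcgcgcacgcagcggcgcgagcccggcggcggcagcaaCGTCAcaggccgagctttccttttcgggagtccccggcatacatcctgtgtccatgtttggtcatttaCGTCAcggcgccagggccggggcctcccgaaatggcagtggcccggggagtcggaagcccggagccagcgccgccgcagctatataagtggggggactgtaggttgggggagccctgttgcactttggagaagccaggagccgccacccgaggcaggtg
The short form TGACG stood in promoters on both sides of the pattern, in Npas4 and Egr4 as in Fos, Atf3 and Dusp1. Zfp36 held neither TGACG nor TGACGTCA on either strand. Of the 29 members with a promoter in the RefSeq table, 17 (58.6%) held TGACG, which includes any full site, against 23.0% of 27025 genes. The full site TGACGTCA was in 2 of 29 (6.90%, Dusp1 and Btg2) against 2.03%, the TATA box in 7 (24.1%) against 15.7%, and the CArG box in 3 (10.3%, Egr2, Dusp5 and Zfp36) against 1.81%. The AP-1 site TGACTCA, the sequence bound by Fos and Jun dimers, was in 0 of 29 against 5.95% of genes. These matches describe letters in a window of 300 bases and say nothing of which factor was bound. Arc, Egr1, Egr3, Ier2 and Nfkbiz were not matched.

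Library depth was 15064391 to 75158213 counts in forebrain and 15755836 to 50541164 counts in isolates. The 34 members took 0.0730% to 0.142% of all counts in the forebrain libraries and 0.512% to 1.88% in the isolates. Il34 itself was at 18.6 to 23.2 CPM (counts scaled to library size with TMM factors) in Het forebrain and at 6.55 to 8.31 CPM in KO forebrain, whereas its isolate levels overlapped (5.06 to 10.3 and 5.17 to 7.05 CPM). The isolates held summed microglia markers (Csf1r, P2ry12, Cx3cr1, Tmem119, Aif1 and Sall1) of 2617 to 2839.9 CPM in KO and 8618 to 11651 CPM in anti-gp120 animals, with none of the 6 at 0. They were not pure: the 8 neuron markers summed to 623 to 2434 CPM in Het isolates and 7317 to 8147 CPM in Het forebrain, and the sums of the 6 astrocyte markers overlapped between isolates (2973 to 11201 CPM in Het) and forebrain (6676 to 7523 CPM).

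The largest difference among the members lay between the preparations. In control animals (Het and anti-gp120, 8 mice), 30 of 34 members were higher in the CD11b isolates than in whole forebrain and 4 were lower, so that all 34 passed the test. Across all 19952 genes tested, 40.5% were called higher and 43% lower, so a call by itself was common; the members' median log2 fold change was 4.18, beside -0.05 over all genes. The members that fell were Npas4, Egr4, Arc and Egr3, of which Npas4 and Arc are largely neuronal in the brain. The test was edgeR's quasi-likelihood F test with Benjamini-Hochberg adjustment over all genes tested, a call being an adjusted p under 0.05, and fold changes are given ± SE. Each library of a preparation came from another animal, so tests within a preparation measure the spread between animals. Tests between preparations took both libraries of each mouse without a term for the animal, so they did not use the pairing. All 34 members passed the filter on low counts in every comparison. Because the isolates are a selection of cells and the forebrain is not, a difference between them holds both the cells present and the expression per cell.

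Levels are given below in every library, in order of animal number within each arm: 1, 20, 21 and 23 for Het, 3, 6 and 24 for KO, 1, 7, 8 and 15 for anti-gp120, and 2, 10, 11 and 24 for anti-IL34. Equal numbers in different experiments are different mice. CPM values compare libraries for 1 gene and are not levels per transcript length.

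The Fos family encodes the partners that pair with Jun proteins to form AP-1. In forebrain, Fos was at 9.67, 16.4, 4.96 and 28.1 CPM in Het, 15.8, 19.1 and 15.8 in KO, 9.10, 20.5, 32.1 and 25.9 in anti-gp120 and 24.7, 30.3, 24.7 and 13.0 in anti-IL34 animals. In isolates, Fos was at 262, 691, 722 and 498 CPM in Het, 316, 444 and 269 in KO, 978, 771, 831 and 716 in anti-gp120 and 913, 639, 719.6 and 692 in anti-IL34 animals. Every isolate was above every forebrain, with Het animal 1 and the KO animals at the bottom of the isolates. Fosb, its activity-induced relative, was at 3.32, 4.49, 2.38 and 5.66 CPM in Het, 4.53, 5.27 and 4.85 in KO, 4.21, 5.91, 10.5 and 9.58 in anti-gp120 and 7.88, 9.40, 6.61 and 4.23 in anti-IL34 animals in forebrain. In isolates Fosb was at 105, 494, 598 and 348 CPM in Het, 188, 234 and 174 in KO, 879, 652, 647 and 541 in anti-gp120 and 847, 545, 497 and 367 in anti-IL34 animals. Here too the preparations did not overlap, and the isolate of Het animal 1 was the lowest of all 15. The fold change in control animals was 5.35 ± 0.33 for Fos (edgeR adjusted p = 2.25e-10) and 6.62 ± 0.35 for Fosb (3.32e-11) on the log2 scale, and 2.82 ± 0.17 for Fosl2 (1.37e-10).

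Jun, the main dimer partner of Fos, was nearly flat in forebrain, at 24.1, 24.2, 24.9 and 26.5 CPM in Het, 23.1, 27.7 and 23.9 in KO, 22.7, 54.0, 32.1 and 24.1 in anti-gp120 and 26.6, 24.6, 22.8 and 24.9 in anti-IL34 animals. Its isolate levels were 1156, 1312, 1868 and 1216 CPM in Het, 559.7, 585 and 458 in KO, 2027, 1979, 1713 and 1448 in anti-gp120 and 1126, 913, 1293 and 908 in anti-IL34 animals. Anti-gp120 animals 7 and 8 stood out in forebrain, and in isolates all 3 KO libraries lay below every other library. Junb, a Jun relative induced by activity, was at 9.40, 13.2, 6.98 and 19.3 CPM in Het, 10.9, 15.7 and 12.8 in KO, 9.16, 21.1, 23.0 and 13.1 in anti-gp120 and 13.4, 26.5, 18.8 and 13.3 in anti-IL34 animals in forebrain. In isolates Junb was at 189, 356, 529 and 369 CPM in Het, 146, 201 and 162 in KO, 617, 568, 560.4 and 365 in anti-gp120 and 443, 295, 428 and 363 in anti-IL34 animals. Junb varied more among forebrains than Jun did, with Het animal 21 lowest and anti-IL34 animal 10 highest. The log2 fold change of the isolates was 5.77 ± 0.19 for Jun (edgeR adjusted p = 1.37e-13), 4.97 ± 0.28 for Junb (9.04e-11) and 2.94 ± 0.17 for Jund (8.81e-11). Jun, Junb and Jund each overlap another gene on the opposite strand (Junos, Prdx2 and Gm11175), as do Atf3, Zfp36, Dusp5 and Cebpb, and whether counting used strand was not given in the sources used here.

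Egr1, a zinc-finger factor induced by both neuronal firing and growth factors, was at 187, 195, 118 and 287 CPM in Het, 228, 233 and 205 in KO, 167, 206, 264 and 272 in anti-gp120 and 206, 301, 245 and 177 in anti-IL34 animals in forebrain. In isolates it was at 553, 1227, 1437 and 813 CPM in Het, 521, 659 and 439.6 in KO, 1878, 1628, 1442 and 1515 in anti-gp120 and 1674, 1059, 1327 and 1262 in anti-IL34 animals. Every isolate was above every forebrain; the lowest KO isolate and the highest anti-IL34 forebrain came closest. The Egr family divided by tissue: Egr1 (2.62 ± 0.22, edgeR adjusted p = 8.28e-09) and Egr2 (3.72 ± 0.32, 1.27e-08) were higher in isolates. Egr3 (-0.94 ± 0.17, edgeR adjusted p = 1.01e-04) and Egr4 (-3.05 ± 0.25, 7.83e-09) were lower there. Egr4 reached only 0.246 to 3.07 CPM in isolates against 4.57 to 11.97 CPM in forebrain, with no overlap, and its lowest isolate rested on 7 counts.

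Arc, whose protein sits at active synapses and is made from RNA sent into dendrites, was at 30.4, 64.3, 20.9 and 81.6 CPM in Het, 52.6, 70.0 and 51.3 in KO, 28.6, 80.8, 124 and 66.9 in anti-gp120 and 54.7, 128, 97.1 and 60.0 in anti-IL34 animals in forebrain. In isolates Arc was at 15.1, 24.5, 4.93 and 21.4 CPM in Het, 30.4, 26.7 and 26.6 in KO, 8.73, 20.2, 21.0 and 48.6 in anti-gp120 and 23.0, 91.9, 50.9 and 39.6 in anti-IL34 animals. The preparations overlapped, and the isolate levels spanned 18.6-fold from Het animal 21 to anti-IL34 animal 10. Npas4, a transcription factor induced by calcium influx in neurons, was at 13.7, 15.3, 9.12 and 26.2 CPM in Het, 13.6, 24.3 and 20.3 in KO, 10.6, 24.9, 26.4 and 22.0 in anti-gp120 and 33.6, 25.7, 15.3 and 14.3 in anti-IL34 animals in forebrain. In isolates Npas4 was at 1.14, 1.89, 0.599 and 1.27 CPM in Het, 2.89, 1.76 and 1.94 in KO, 1.22, 0.939, 1.24 and 1.18 in anti-gp120 and 2.12, 1.46, 1.81 and 1.75 in anti-IL34 animals. No isolate reached the lowest forebrain. The isolates were lower by -3.95 ± 0.23 for Npas4 (edgeR adjusted p = 9.15e-11) and -1.62 ± 0.28 for Arc (5.23e-05), as log2 fold changes of isolate over forebrain.

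The orphan receptor Nr4a1, induced without a ligand by calcium and inflammatory signals, was at 48.4, 63.6, 40.5 and 96.6 CPM in Het, 74.1, 86.2 and 77.8 in KO, 43.0, 84.2, 106 and 76.9 in anti-gp120 and 75.5, 118, 90.6 and 67.7 in anti-IL34 animals in forebrain. In isolates Nr4a1 was at 287, 602, 687 and 628 CPM in Het, 316, 339 and 282 in KO, 1164, 995, 1017 and 599.6 in anti-gp120 and 782, 569, 769.6 and 486 in anti-IL34 animals. The 3 KO libraries and Het animal 1 were the lowest isolates. Its log2 fold change was 3.42 ± 0.25 (edgeR adjusted p = 1.74e-09), beside those of Nr4a3 (1.98 ± 0.19, 5.18e-08) and Nr4a2 (0.68 ± 0.17, 0.00179). Nr4a2 showed the smallest rise of the 30 members, and its isolates overlapped its forebrains.

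Atf3, a stress-induced repressor of the CREB family, had the widest gap between preparations. In forebrain it was at 0.409, 0.322, 0.195 and 0.776 CPM in Het, 0.593, 0.418 and 0.539 in KO, 0.455, 0.842, 1.00 and 0.808 in anti-gp120 and 0.782, 0.979, 0.542 and 0.392 in anti-IL34 animals, from as few as 9 counts. In isolates it was at 1207, 1479.8, 3224 and 2108 CPM in Het, 681, 645 and 711 in KO, 2703, 2183, 2265 and 1614 in anti-gp120 and 1365, 1046, 1541 and 870.2 in anti-IL34 animals. Het animal 21 combined the lowest forebrain with the highest isolate, and the 3 KO isolates were the lowest. The log2 fold change was 11.87 ± 0.38, or 3747-fold (edgeR adjusted p = 9.95e-14). Zfp36 (tristetraprolin), which marks inflammatory and early mRNAs for decay, followed with 9.09 ± 0.25, or 545-fold (2.09e-14); it ran from 1.25 to 2.44 CPM in forebrain and from 294 to 1465 CPM in isolates.

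Dusp1, a nuclear phosphatase that shuts off p38 and JNK, was at 11.9, 15.4, 10.8 and 20.2 CPM in Het, 16.7, 17.8 and 19.2 in KO, 10.9, 23.8, 29.1 and 13.2 in anti-gp120 and 17.6, 27.0, 20.7 and 15.6 in anti-IL34 animals in forebrain. In isolates Dusp1 was at 133, 300.2, 418 and 351 CPM in Het, 149.6, 185 and 163 in KO, 459, 379, 471 and 257 in anti-gp120 and 380.1, 279, 395 and 308 in anti-IL34 animals. Every isolate exceeded every forebrain, and Het animal 1 was the lowest isolate. The log2 fold change was 4.38 ± 0.27 for Dusp1 (edgeR adjusted p = 2.75e-10), 5.08 ± 0.26 for Dusp2 (2.34e-11), 2.87 ± 0.22 for Dusp5 (3.07e-09) and 1.20 ± 0.11 for the ERK phosphatase Dusp6 (4.50e-08). The deposited length of Dusp1 equals a gene span of 56539 bases that holds parts of 4 other annotated genes, so its counts may include their reads.

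Ier2, a gene for a nuclear growth-response protein, was at 2.55, 3.26, 1.58 and 4.71 CPM in Het, 2.87, 3.92 and 3.77 in KO, 2.13, 5.56, 7.08 and 2.31 in anti-gp120 and 3.97, 5.78, 4.83 and 2.79 in anti-IL34 animals in forebrain. In isolates Ier2 was at 33.5, 72.0, 78.4 and 53.8 CPM in Het, 33.3, 43.8 and 35.2 in KO, 113, 105, 101 and 68.3 in anti-gp120 and 114, 72.1, 96.2 and 86.7 in anti-IL34 animals. Klf2, a zinc-finger factor that restrains inflammatory transcription, was at 3.20, 3.76, 2.86 and 3.58 CPM in Het, 3.58, 3.21 and 3.91 in KO, 3.07, 4.87, 6.02 and 3.12 in anti-gp120 and 3.49, 4.62, 4.49 and 3.75 in anti-IL34 animals in forebrain. Its isolates were at 138, 202, 289 and 196 CPM in Het, 89.9, 87.6 and 67.9 in KO, 354, 296, 337 and 218 in anti-gp120 and 199, 161, 236 and 147 in anti-IL34 animals. For both genes no forebrain approached an isolate, and for Klf2 all KO isolates lay below all others. The log2 fold change was 4.43 ± 0.29 for Ier2 (edgeR adjusted p = 5.72e-10) and 6.05 ± 0.20 for Klf2 (1.85e-13).

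The remaining 11 members rose by 3.40 to 6.02 on the log2 scale. Those with the smallest p were Ier3 (5.72 ± 0.21, edgeR adjusted p = 5.24e-13), Nfkbiz (5.51 ± 0.22, 1.29e-12), the small GTPase gene Rhob (3.43 ± 0.14, 2.07e-12) and the NF-kB inhibitor gene Nfkbia (4.36 ± 0.20, 6.98e-12). Cebpb, a factor of myeloid activation, rose by 5.36 ± 0.26 (1.22e-11) and Klf4 by 6.02 ± 0.30 (1.30e-11). Over all 15 animals, every isolate exceeded every forebrain for 28 members, beside 21.9% of 20634 genes past the filter on low counts, and every isolate was below every forebrain for 2, Egr4 and Npas4, beside 24.5% of genes.

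**Figure D1:**
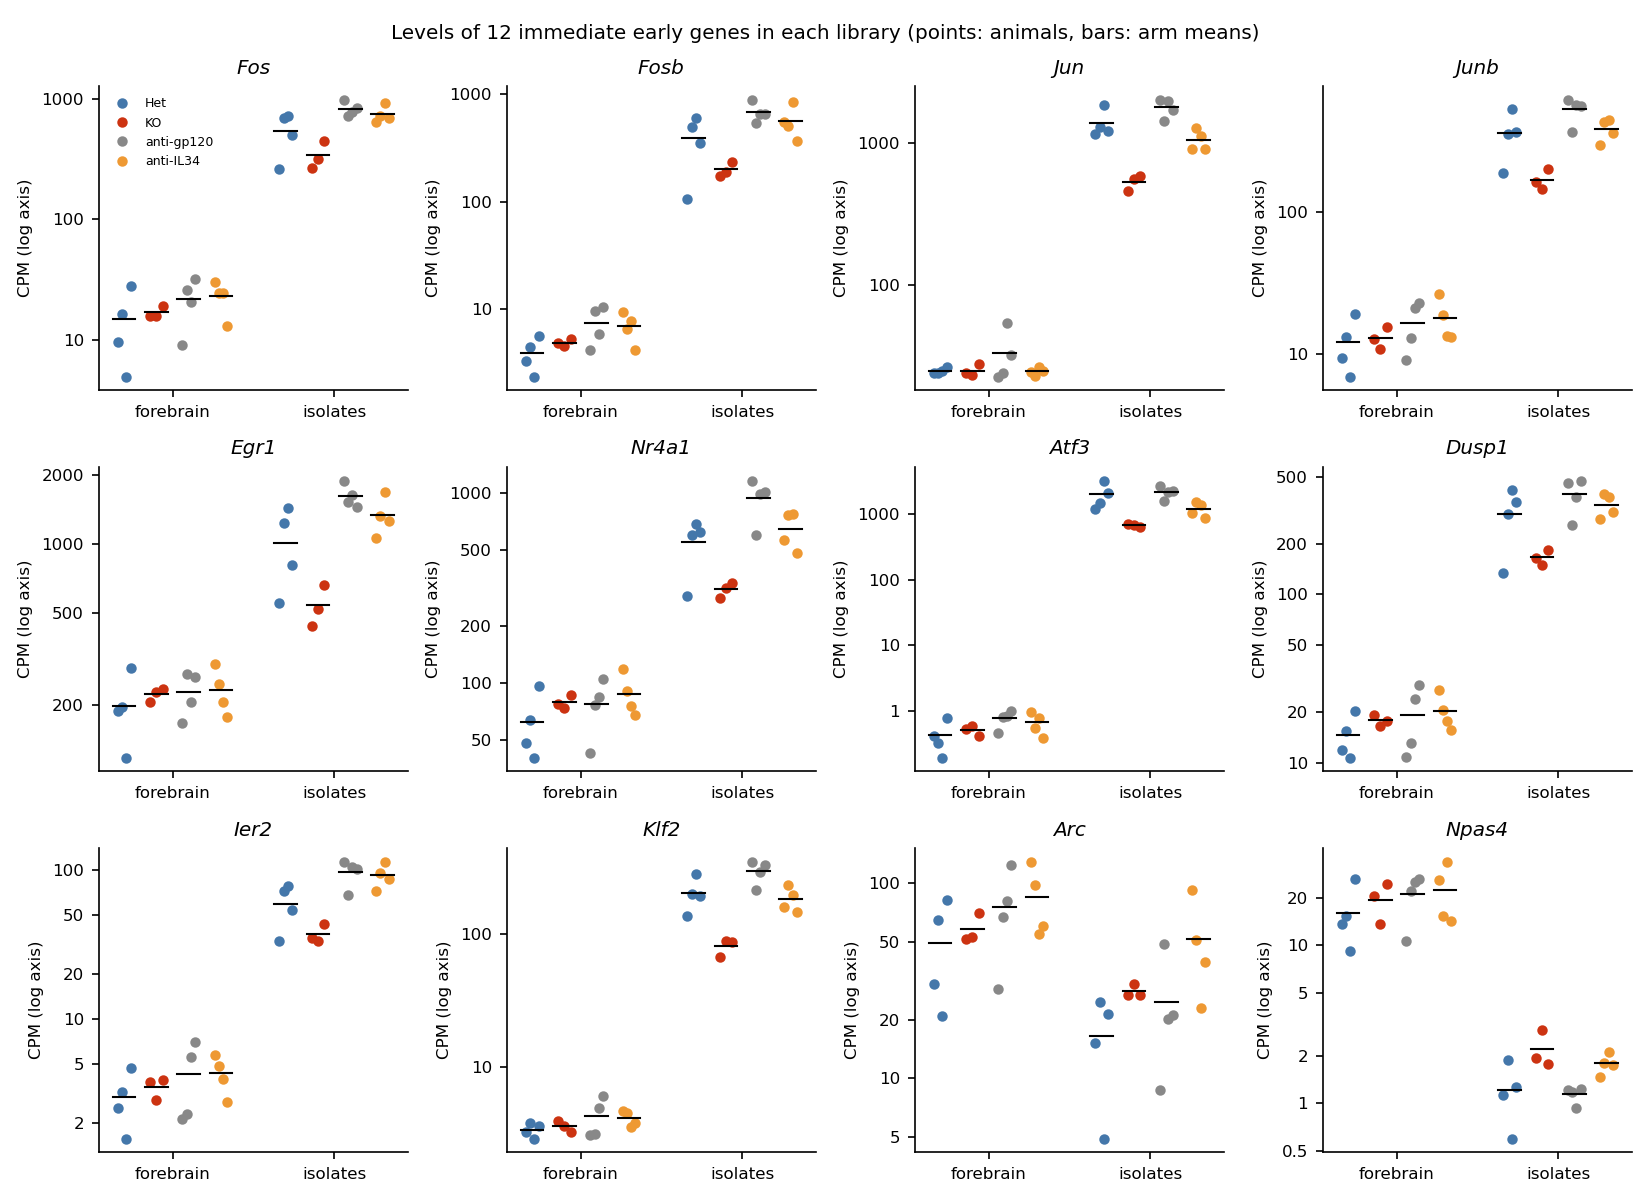
Each point is the level of 1 gene in 1 library, in CPM on a log axis, for 12 members by preparation and arm, and bars are arm means. Arc and Npas4 were lower in the isolates, and the other 10 were higher, from 4.96 to 32.1 CPM in forebrain to 262 to 978 CPM in isolates for Fos.

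**Figure D2:**
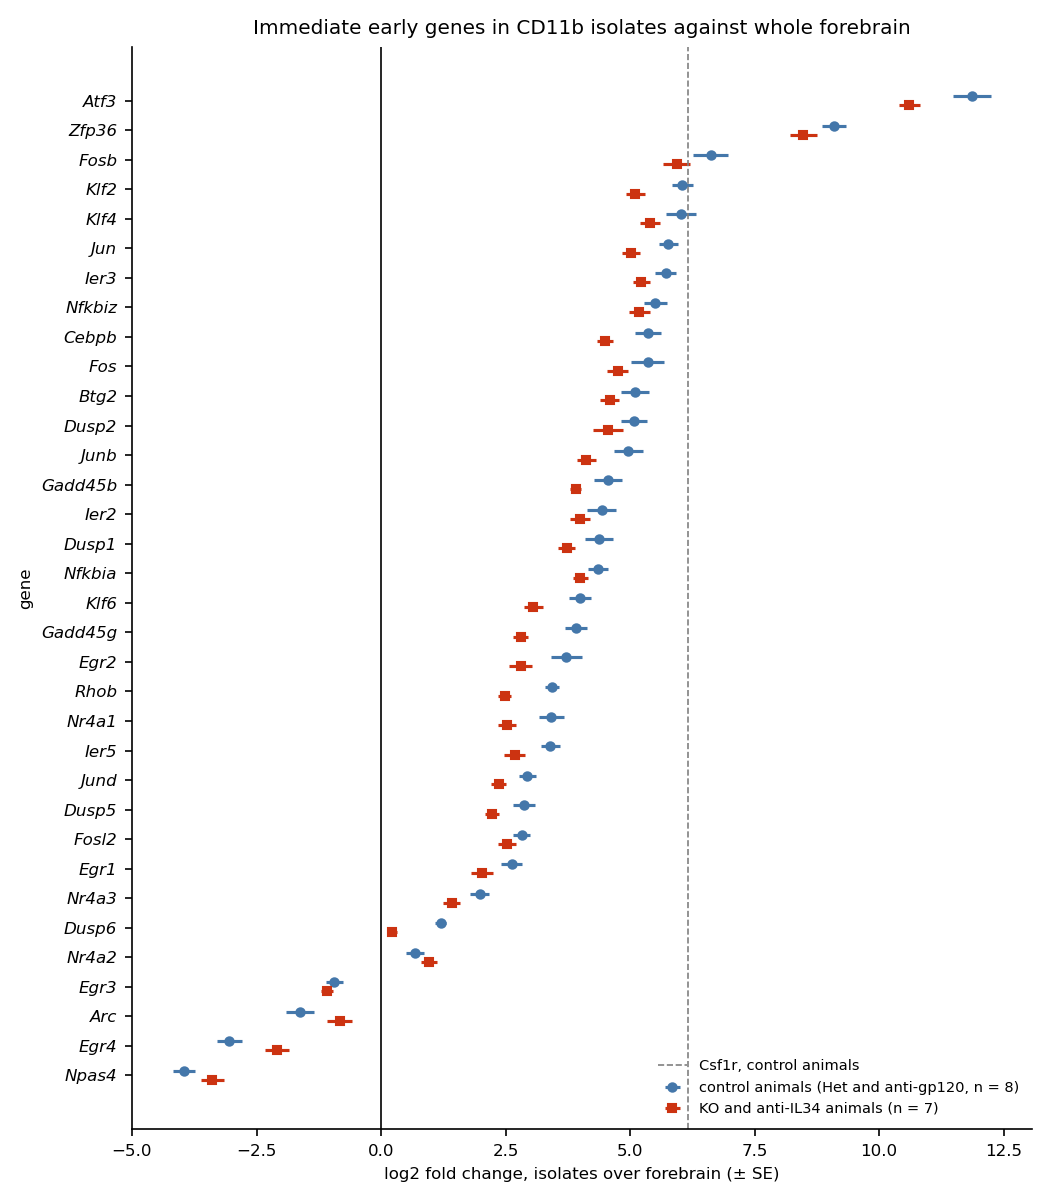
Points are log2 fold changes of isolate over forebrain ± SE for all 34 members, in control animals (circles, n = 8) and in KO and anti-IL34 animals (squares, n = 7), and the dashed line is the microglia marker Csf1r in control animals at 6.17. Atf3 and Zfp36 lie far to the right of Csf1r, and Npas4, Egr4, Arc and Egr3 lie below 0 in both sets of animals.

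The rise was set against markers of microglia in the same animals, as the ratio of isolate to forebrain. Csf1r had a median log2 ratio of 6.02 over the 15 animals (range 5.62 to 6.97). It had the highest ratio of the 6 markers in 13 animals. The other medians were 5.96 for Tmem119, 5.50 for Cx3cr1, 5.27 for P2ry12, 4.60 for Aif1 and 3.83 for Sall1. Atf3 had a median of 11.14 (10.06 to 14.01) and Zfp36 one of 8.98 (6.92 to 9.70). Both exceeded Csf1r and each of the 6 microglia markers in 15 of 15 animals. Fosb exceeded Csf1r in 7 animals, Klf4 in 5, and Klf2 and Nfkbiz in 3 each, whereas 21 members stayed below Csf1r in every animal. Among these 21, Egr1 had a median of 2.45 and Dusp6 one of 0.62, below that of Sall1. Medians of Ier2 (4.24), Nfkbia (4.20) and Dusp1 (4.12), also among the 21, were above that of Sall1.

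In the 7 KO and anti-IL34 animals the same contrast gave 29 members higher, 4 lower and 1 not past the threshold, beside 43% of all genes called higher and 40.3% lower. The median was 3.39 for the members and 0.04 for all genes. Dusp6 was the member not past the threshold, at 0.22 ± 0.11 (edgeR adjusted p = 0.0742). The members with the smallest p were Atf3 (10.61 ± 0.21, 3.89e-14), Gadd45b (3.91 ± 0.11, 4.52e-13), Zfp36 (8.47 ± 0.27, 9.89e-13), Ier3 (5.23 ± 0.17, 1.42e-12), Nfkbia (4.002 ± 0.15, 3.30e-12) and Cebpb (4.49 ± 0.16, 3.53e-12). Next came Klf4 (5.40 ± 0.20, edgeR adjusted p = 3.70e-12), Klf2 (5.11 ± 0.19, 3.76e-12), Jun (5.02 ± 0.19, 3.98e-12) and the antiproliferative gene Btg2 (4.59 ± 0.18, 8.52e-12). The 4 that fell were Npas4 (-3.39 ± 0.23, edgeR adjusted p = 3.67e-09), Egr4 (-2.09 ± 0.23, 8.39e-07), Egr3 (-1.09 ± 0.12, 5.74e-07) and Arc (-0.83 ± 0.25, 0.00748).

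Loss of Il34 was then compared with its heterozygous control within each preparation. In the isolates, 4 members fell in KO animals and none rose, while 5.22% of 18185 genes were called lower. Jun fell to 39.8% of the Het level, Rhob to 39.4%, Klf2 to 40.6% and Dusp6 to 48.4%. Over all 34 members 30 estimates were negative and 4 positive, with a median of -0.89, beside 0.02 over all genes tested. The 4 positive estimates were those of Egr4, Npas4, Arc and Nr4a2, which did not pass the test.

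The 4 genes lie at chr10:99263231-99267489 (plus strand) for Dusp6, chr4:95049034-95052222 (minus strand) for Jun, chr8:72319033-72321656 (plus strand) for Klf2 and chr12:8497661-8500009 (minus strand) for Rhob in the GENCODE M21 annotation of GRCm38. Dusp6 had the smallest p. Its isolate levels were 121, 142, 137 and 113 CPM in the Het animals and 64.5, 61.8 and 57.8 CPM in the KO animals, with no overlap, and the log2 fold change was -1.05 ± 0.13 (edgeR adjusted p = 0.0143). Jun levels in the isolates, given above, did not overlap between genotypes either, and the change was -1.33 ± 0.25 (edgeR adjusted p = 0.0316). Klf2 changed by -1.30 ± 0.26 (0.0413 by the same test), again without overlap. Rhob, an endosomal GTPase gene induced by stress, was at 842, 1099.9, 1621 and 1105 CPM in the Het animals and 414, 473 and 482 CPM in the KO animals. The Rhob levels did not overlap and the change was -1.34 ± 0.27 (edgeR adjusted p = 0.0421). With RLE size factors the calls of Klf2 and Rhob ended (edgeR adjusted p = 0.0510 and 0.0536), while Jun and Dusp6 passed.

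Other estimates of similar or larger size had larger errors and did not pass. Atf3 was at -1.51 ± 0.39 (edgeR adjusted p = 0.0739), Ier5 at -1.43 ± 0.37 (0.0754), Klf6 at -1.39 ± 0.49 (0.122) and Gadd45g at -1.34 ± 0.35 (0.0756). Fos was at -0.69 ± 0.38 (0.234) and Egr1 at -0.90 ± 0.38 (0.151). The isolate of Het animal 1 lay below all KO isolates for Fos and inside their range for Egr1. In the opposite direction Egr4 was at 1.45 ± 0.39 (edgeR adjusted p = 0.0827), Npas4 at 0.89 ± 0.41 (0.174) and Arc at 0.80 ± 0.43 (0.220). The count of calls rested on single libraries, for all genes as for the members. Without Het animal 1, 25 members passed (24 lower, 1 higher), beside 31.5% of all genes tested, and without Het animal 21, 11 passed (10 lower, 1 higher), beside 17.2%; 0 members and 0 of all genes passed when any 1 of the other 5 animals was left out. DESeq2 called 14 (13 lower, 1 higher), beside 24.2% of genes.

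**Figure D3:**
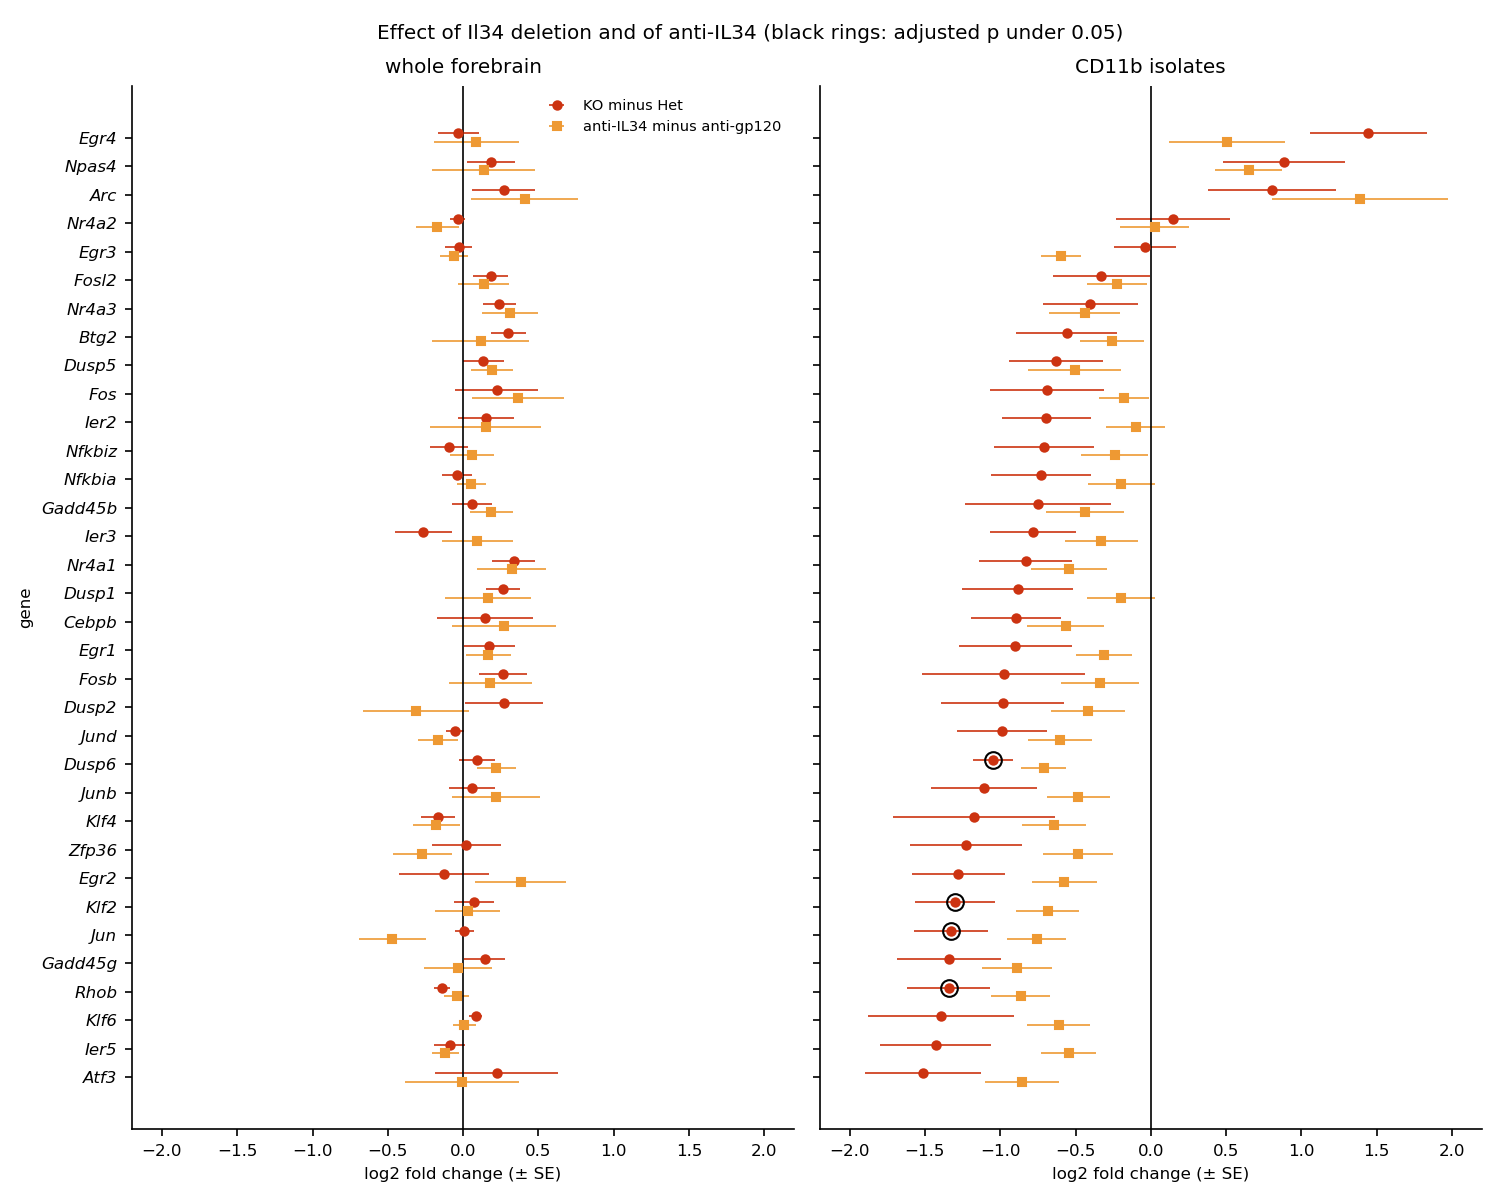
Points are log2 fold changes ± SE for the 34 members in forebrain (left) and isolates (right), for KO minus Het (circles) and anti-IL34 minus anti-gp120 (squares), and black rings mark adjusted p under 0.05. In isolates 30 of 34 estimates were negative in each experiment and 4 deletion effects are ringed (Dusp6, Jun, Klf2 and Rhob). Forebrain estimates ran from -0.27 to 0.34 for the deletion and from -0.47 to 0.41 for the antibody, with none ringed.

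After the antibody no member passed the test in the isolates, in a comparison where 0.626% of 17570 genes were called. Over the members 30 estimates were negative and 4 positive with a median of -0.46, beside 0.06 over all genes, and 14 members had an unadjusted p under 0.05, beside 25.9% of genes. The smallest p belonged to Dusp6, at 149.5, 111, 126 and 117 CPM in the anti-gp120 animals and 70.9, 63.4, 96.1 and 71.0 CPM in the anti-IL34 animals. These levels did not overlap, and the change was -0.71 ± 0.15 (edgeR adjusted p = 0.0656). Egr3, a target of calcium signals in neurons and lymphocytes, was at 97.7, 77.9, 77.3 and 86.0 CPM in the anti-gp120 animals and 67.7, 51.2, 56.4 and 50.9 CPM in the anti-IL34 animals. The Egr3 levels did not overlap and changed by -0.60 ± 0.13 (edgeR adjusted p = 0.0706). Rhob was at 1778, 1532, 1600.2 and 1222 CPM in the anti-gp120 animals and 859.6, 673, 1048 and 759 CPM in the anti-IL34 animals, without overlap, and changed by -0.86 ± 0.20 (edgeR adjusted p = 0.0759). Without anti-gp120 animal 15, whose isolate had the lowest level of its arm for most of the members listed by library, 20 members passed (19 lower, 1 higher), beside 40.4% of all genes tested. Without anti-IL34 animal 11, 3 passed (Jun, Dusp6 and Rhob), beside 3.02%. DESeq2 called 7 (Jun, Egr3, Atf3, Dusp6, Klf2, Rhob and Gadd45g), all lower, beside 12.2% of genes.

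The size of the effect in the isolates was compared between experiments. The deletion effect minus the antibody effect passed the test for 0 of 34 members in isolates, where 0% of 18732 genes were called by edgeR (740 genes, or 3.95%, and 1 member had an unadjusted p under 0.05, and DESeq2 called 35 genes). The smallest p values were those of Egr3 (0.57 ± 0.25, edgeR adjusted p = 1.00), Ier5 (-0.85 ± 0.41, the same adjusted p) and Egr4 (0.99 ± 0.53, the same adjusted p). In forebrain the difference passed for 0 members, with 0.0101% of genes called, and the smallest p values were those of Jun (0.47 ± 0.28), Dusp2 (0.58 ± 0.42) and Egr2 (-0.56 ± 0.49), each with an edgeR adjusted p of 1.00. In forebrain 0 members had an unadjusted p under 0.05, beside 3.07% of genes, and DESeq2 called 0 members and 0.161% of genes. A p that misses the threshold does not show that the experiments acted alike.

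Cell type markers in the isolates moved with the same arms. All 6 microglia markers found fell in KO isolates, with a median log2 fold change of -1.59, and their summed level was 6839 to 11535 CPM in Het and 2617 to 2839.9 CPM in KO isolates. Csf1r changed by -1.57 (edgeR adjusted p = 0.0346), which is more than Jun, Klf2, Rhob or Dusp6. After the antibody 3 of 6 fell, the median was -1.08, and the sums were 8618 to 11651 CPM with anti-gp120 and 3569 to 5522 CPM with anti-IL34. The 8 neuron markers moved the other way without passing the test, at a median of 0.91 in KO isolates (sums of 623 to 2434 CPM in Het and 2092 to 3628 CPM in KO) and 0.95 after the antibody (1133 to 3936 and 3103 to 4872 CPM). The 6 astrocyte markers were at 0.98 and 0.74, with sums of 2973 to 11201 CPM in Het, 12249.8 to 15564 in KO, 4663 to 18279.9 in anti-gp120 and 10338 to 18791 in anti-IL34 isolates, and no neuron or astrocyte marker was at 0. The 3 libraries whose removal raised the counts of calls most stood at 1 end of their arms. The isolate of Het animal 1 had the highest neuron (2434 CPM) and astrocyte (11201 CPM) sums and the lowest microglia sum (6839 CPM) of the Het arm, and that of anti-gp120 animal 15 likewise in its arm (3936, 18280 and 8618 CPM). Het animal 21 had the lowest neuron (623 CPM) and astrocyte (2973 CPM) and the highest microglia sum (11535 CPM) of the Het arm. The part of these shifts in the counts of calls, in the lower level of the members, and in the higher estimates of Arc, Npas4 and Egr4, was not tested, and fewer cells of a type and less RNA per cell cannot be told apart in such libraries.

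**Figure D4:**
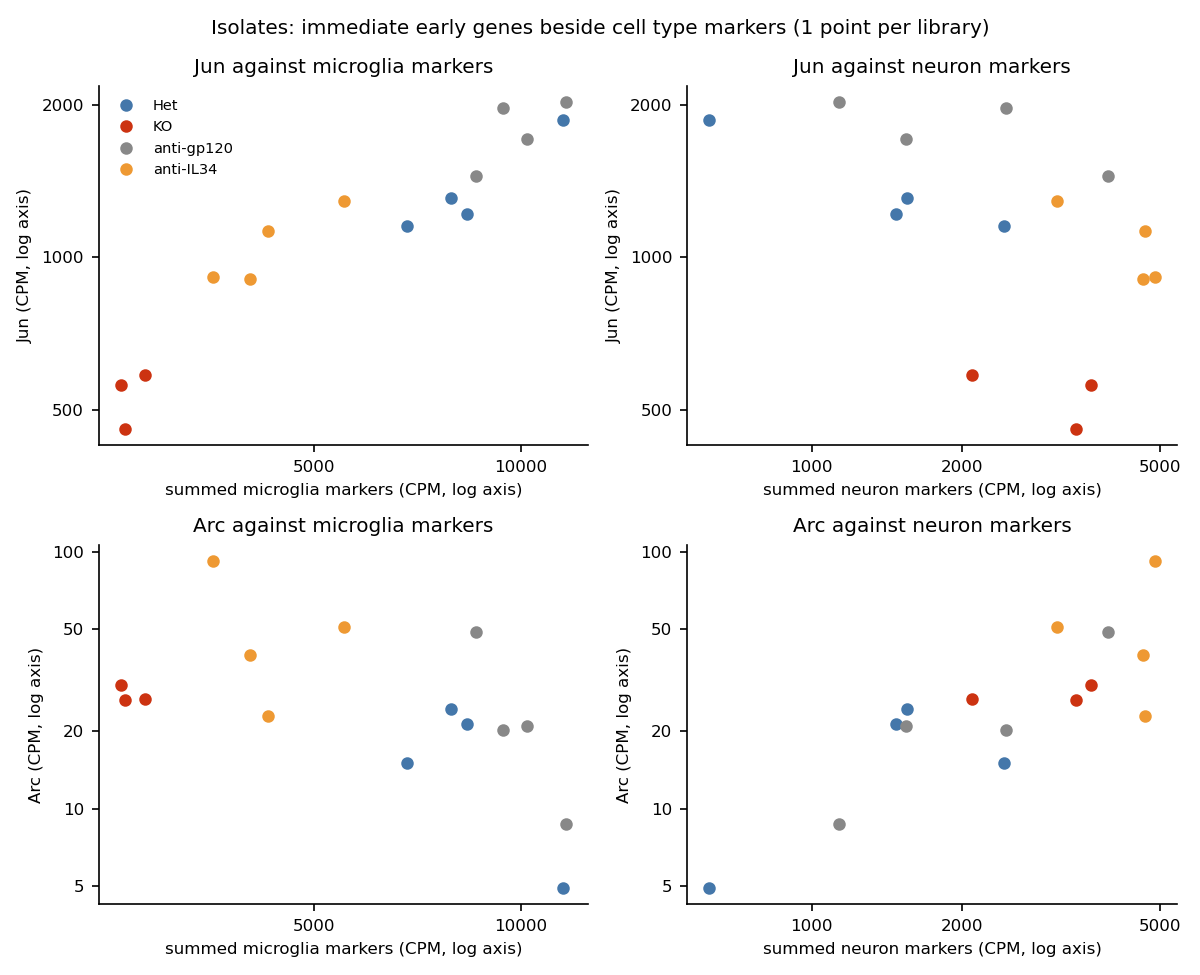
Each point is 1 isolate, with Jun (top) or Arc (bottom) in CPM against the summed level of microglia markers (left) or neuron markers (right), all on log axes. The KO isolates have the lowest Jun (458 to 585 CPM) and the lowest microglia markers, and Arc runs from 4.93 CPM in the isolate with the fewest neuron markers to 91.9 CPM in the one with the most.

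Whether the deletion acted differently in the preparations was tested directly. The effect in isolates minus the effect in forebrain passed for 3 members, all in the negative direction, beside 2.43% of 20107 genes. Jun differed by -1.30 ± 0.24 (edgeR adjusted p = 0.0224), Dusp6 by -1.11 ± 0.21 (0.0253) and Rhob by -1.17 ± 0.28 (0.0474). The median over the members was -1.001 and that over all genes 0.12. With the animal as a replicate block, 0 of the 20107 genes passed, members included. DESeq2 called 14 members (13 lower, 1 higher), beside 22.4% of genes. By edgeR 22 members passed without Het animal 1 (28.5% of genes) and 8 without Het animal 21 (16.3%). Without any other 1 animal, 0 passed. The antibody effect did not differ past the threshold for any member, beside 0.0924% of genes called; the smallest p values were those of Dusp6 (-0.94 ± 0.23, edgeR adjusted p = 0.112), Rhob (-0.84 ± 0.23, 0.139) and Egr3 (-0.54 ± 0.18, 0.176), and 9 members had an unadjusted p under 0.05, beside 21.1% of genes. DESeq2 called 3 of them (Egr3, Dusp6 and Rhob), beside 8.86% of genes.

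In whole forebrain 0 members passed the test between KO and Het animals, in a comparison where 0.62% of 19343 genes were called. Of the estimates 23 were positive and 11 negative, all between -0.27 and 0.34, with a median of 0.09 beside -0.000209 for all genes, and 4 had an unadjusted p under 0.05, beside 7.45% of genes. The smallest p values were those of Rhob (-0.14 ± 0.05, edgeR adjusted p = 0.569), Btg2 (0.30 ± 0.12, 0.587) and Dusp1 (0.27 ± 0.11, 0.632). The genes used to read neuronal firing had wide errors, with Fos at 0.22 ± 0.28 (edgeR adjusted p = 0.896), Arc at 0.27 ± 0.21 (0.830) and Npas4 at 0.19 ± 0.16 (0.848). For Fos, the KO range lay inside the Het range. Microglia markers in the same forebrains did fall, with 4 of 6 past the threshold and a median of -1.40. So did 3 of 5 oligodendrocyte lineage markers (Mbp, Mog and Mobp, list median -0.33), whose sums of 2867 to 3303 CPM in Het and 2221 to 2531 CPM in KO did not overlap. DESeq2 called 0 members, beside 0.938% of genes, and Nr4a1 alone passed when Het animal 23 was left out, beside 0.614%. Without the filter on low counts 4 members passed, all higher in KO (Egr1, Nr4a1, Nr4a3 and Arc), beside 1.24% of genes.

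After the antibody 0 members passed in forebrain, with 0.717% of 17143 genes called and 0 members at an unadjusted p under 0.05, beside 4.86% of genes; DESeq2 called 0 members and 1.16% of genes. Without the filter on low counts 5 members passed, Jun lower and Fos, Nr4a1, Nr4a3 and Arc higher, beside 1.15% of genes. The smallest p values were those of Jun (-0.47 ± 0.22), Dusp6 (0.22 ± 0.13) and Nr4a3 (0.31 ± 0.19), each with an edgeR adjusted p of 0.999. The Jun estimate came from anti-gp120 animals 7 and 8, since the other 2 anti-gp120 forebrains lay within or just below the range of the 4 treated ones. Fos was at 0.37 ± 0.31 and Arc at 0.41 ± 0.35, with the arms overlapping for both. Of the 6 microglia markers 5 fell in these forebrains (median -1.35).

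Forebrains of the same arm differed widely for some members and little for others. Over the 15 animals the highest level was 7.97-fold the lowest for Egr2, 6.47-fold for Fos and 6.11-fold for Arc, whereas it was 1.19-fold for the zinc-finger gene Klf6 and 1.43-fold for Nfkbia. The low and high animals recurred. Het animal 21 was the lowest forebrain for Fos, Fosb, Junb, Egr1, Egr2, Nr4a1, Arc and Npas4, and anti-gp120 animal 8 or anti-IL34 animal 10 was the highest for all of these but Npas4, which peaked in anti-IL34 animal 2. The Het arm held both a low animal (21) and a high one (23), with Fos at 4.96 and 28.1 CPM. In isolates the lowest library was Het animal 1 or a KO animal for every member except Arc, Egr4 and Npas4, which were lowest in Het animal 21.

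Members were then correlated across animals within each experiment, on log2 CPM, over 36 relations with exact permutation tests and Benjamini-Hochberg adjustment over all 36. Of these, 17 passed by Pearson's r (11 of 12 within forebrain and 6 of 12 within isolates), 11 by Spearman's rho and 10 by both, all within 1 preparation. In forebrain of the genotype experiment (n = 7), Fos followed Arc with r = 0.977 and rho = 1.00 (exact permutation p = 1.98e-04 for r, the smallest that 7 pairs allow, adjusted p = 0.00714). Without the 2 animals of most extreme Fos it was 0.976. In the antibody experiment (n = 8) r was 0.853 and rho 0.810 (exact permutation adjusted p = 0.0190 and 0.0653), and 0.623 without the 2 extremes. These relations describe libraries that share tissue and preparation.

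Fos with Egr1 in forebrain gave r = 0.966 and rho = 0.893 in the genotype experiment (exact permutation adjusted p = 0.00714 and 0.0403, r = 0.731 without the 2 extremes). In the antibody experiment they were 0.893 and 0.905 (exact permutation adjusted p = 0.00714 and 0.0326, r = 0.782 without the 2). Some relations rested on the extremes. For Fos with Npas4 in the genotype experiment r was 0.900 and rho 0.821 (exact permutation adjusted p = 0.00714 and 0.0819), and r was 0.646 without 2 animals. In the antibody experiment r was 0.805 and rho 0.643 (exact permutation adjusted p = 0.0336 and 0.151), and r fell to 0.128 without 2 animals. In the antibody forebrains r of Fos with Junb and with Dusp1 likewise went from 0.767 and 0.740 to 0.374 and 0.372. In isolates Fos with Egr1 gave r = 0.961 and rho = 0.893 in the genotype experiment (exact permutation adjusted p = 0.00714 and 0.0403, r = 0.982 without the 2). In the antibody experiment they were 0.882 and 0.881 (0.0133 and 0.0326, r = 0.768). The isolate relations of Fos with Jun did not pass in the genotype (r = 0.688, rho = 0.786, exact permutation adjusted p = 0.148 and 0.102) or the antibody experiment (r = 0.606, rho = 0.690, adjusted p = 0.172 and 0.119). Nor did those of Fos with Atf3, with r = 0.693 and 0.683 and rho = 0.607 and 0.714 (exact permutation adjusted p = 0.152 and 0.111 for r, 0.246 and 0.115 for rho). Without the 2 extremes these 4 values of r were 0.897 and 0.849 for Jun and 0.784 and 0.856 for Atf3.

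The hemispheres of an animal were also compared. For Fos, Junb, Egr1, Nr4a1, Dusp1 and Jun, the forebrain level was set against the isolate level of the same animal, and 0 of 12 relations passed by r or rho. Fos gave r = -0.187 and rho = 0.143 (n = 7, exact permutation adjusted p = 0.780 and 0.880, r = 0.532 without the 2 extremes) in the genotype experiment. In the antibody experiment r was -0.413 and rho -0.333 (n = 8, exact permutation adjusted p = 0.399 and 0.571, r = -0.175 without the 2). Of the 12 values of r, 9 were negative, and they ran from -0.590 for Egr1 to 0.466 for Jun, both in the antibody experiment. After subtracting each arm's mean, 6 of the 12 were negative and 0 passed. Several of the values before that step changed sign or size without the 2 extremes. In the antibody experiment they went to 0.874 for Junb, 0.807 for Nr4a1 and -0.640 for Jun, and in the genotype experiment to 0.799 for Jun. With 7 or 8 animals these values settle neither a relation nor its absence.

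**Figure D5:**
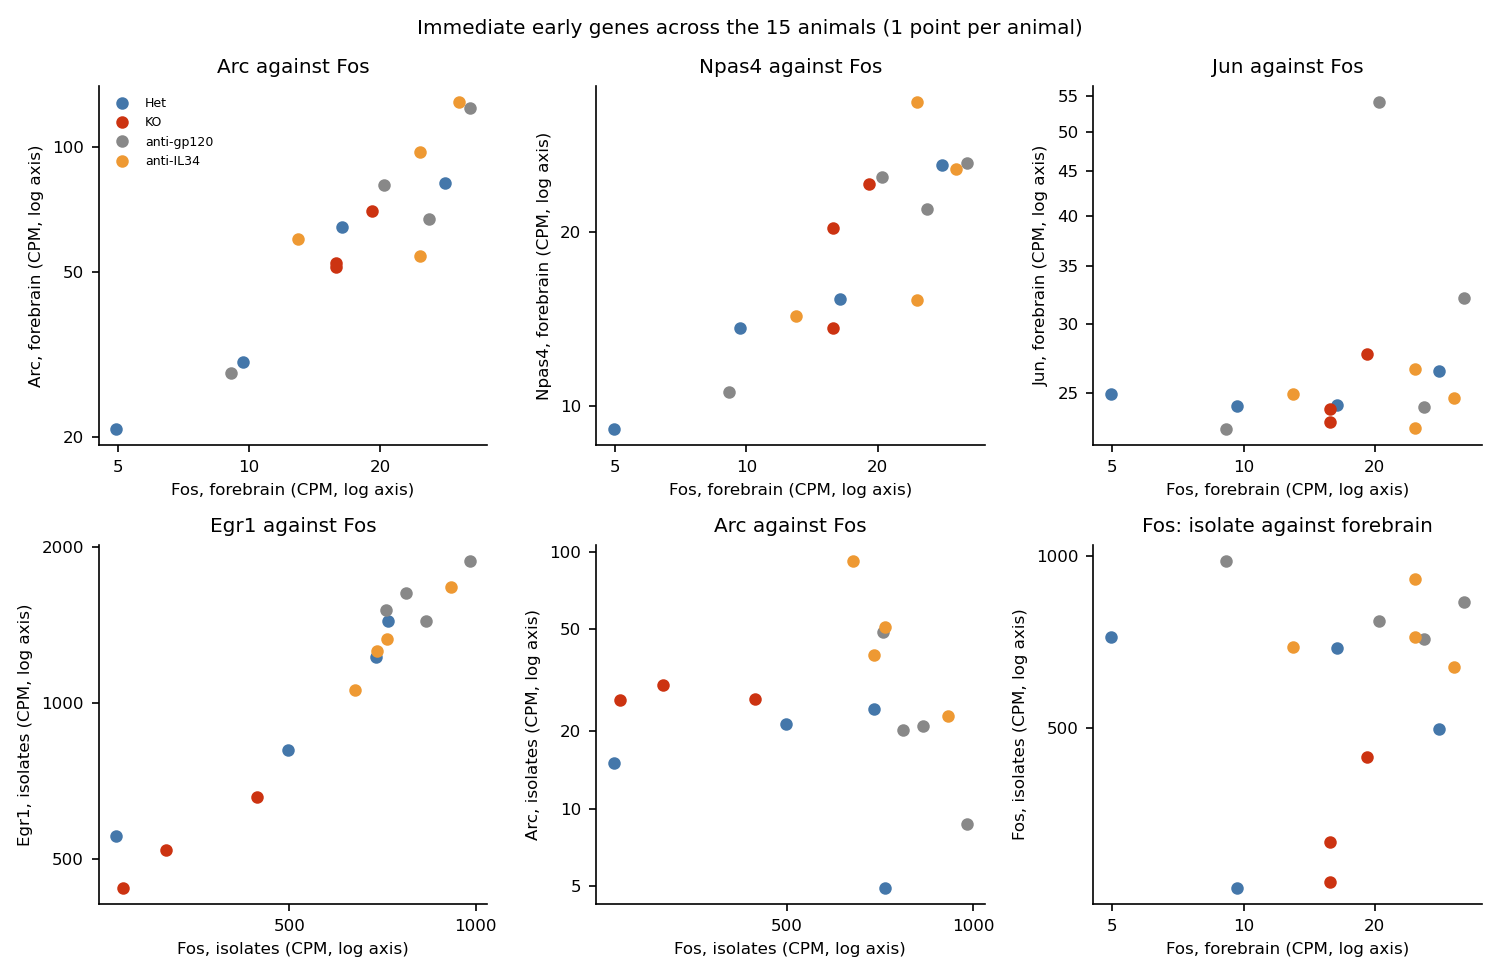
Each point is 1 animal, with levels in CPM on log axes: Arc, Npas4 and Jun against Fos in forebrain (top), and Egr1 and Arc against Fos in isolates and isolate Fos against forebrain Fos (bottom). Fos and Arc rise together in forebrain from Het animal 21 (4.96 and 20.9 CPM) upward, and Jun stays between 22.7 and 27.7 CPM apart from anti-gp120 animals 7 and 8; the relation of isolate Fos to forebrain Fos, at r = -0.187 and -0.413 in the genotype and antibody experiments, did not pass.

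The control arms of the experiments were also compared, a contrast that cannot be told apart from everything else that differed between the experiments (genotype, antibody injection and any difference in handling). In forebrain all 34 estimates were lower in Het than in anti-gp120 animals, with a median of -0.36 beside 0.00 for all genes, but 0 members passed by edgeR, with 0.887% of 19724 genes called, and 11 members had an unadjusted p under 0.05, beside 11.5% of genes. The smallest p values were those of Fosb (-0.89 ± 0.23, edgeR adjusted p = 0.0849), Egr3 (-0.36 ± 0.10, 0.0927) and Dusp5 (-0.48 ± 0.14, 0.127). DESeq2 called these 3, beside 2.13% of genes, and without the filter on low counts 17 members passed, all lower in Het, beside 2.79%. Cell type markers differed between the same forebrains: 5 of 6 microglia markers were lower in Het (median -0.82, sums of 136 to 151 CPM in Het and 199 to 261 CPM in anti-gp120), and 2 of 4 choroid plexus markers were higher (Kl and Folr1, list median 1.96, sums of 142 to 186 and 6.52 to 57.8 CPM). None of these markers was at 0, and their part in the lower estimates of the members was not tested. In isolates 1 member fell, beside 0.101% of 18732 genes called lower: Egr3 was at 23.5, 38.2, 37.8 and 32.2 CPM in the Het animals and 97.7, 77.9, 77.3 and 86.0 CPM in the anti-gp120 animals. The arms did not overlap, and the Het level was 38.8% of the anti-gp120 level (log2 -1.37 ± 0.17, edgeR adjusted p = 0.0195). Leaving out any 1 of anti-gp120 animals 1, 7 and 8 or Het animal 20 ended the Egr3 call, in fits where 0 or 1 gene passed in all. Het and anti-gp120 isolates also differed in the 4 choroid plexus markers (Ttr, Kl, Clic6 and Folr1), which summed to 1657 to 3824 CPM in Het and 3.82 to 6.76 CPM in anti-gp120 isolates with none at 0 in any of them; their part in the Egr3 difference was not tested. These contrasts share their control animals with the comparisons above.

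Genes around the members in the pathway were followed as lists. Of 23 upstream regulators (SRF, its partners, CREB and MEF2 factors, MAP kinases and NF-kB subunits), 0 rose and 4 fell in KO isolates, with a median of -0.39: the kinase gene Rps6ka1 (-1.46, edgeR adjusted p = 0.0136), Mef2a (-1.33, 0.0481), Mapk14, which encodes p38 (-0.82, 0.0261), and Elk3 (-0.81, 0.0203). In that comparison 5.22% of all genes were called lower, and the calls of the lists, like those of the members, ended when any 1 of the 5 animals other than Het 1 and 21 was left out. Srf itself was at -0.39 (edgeR adjusted p = 0.159) and Creb1 at -0.34 (0.133). After the antibody 0 of 23 passed in isolates (median -0.24), beside 0.626% of all genes called. In KO forebrain 1 fell, Rps6ka1, at -0.54 (edgeR adjusted p = 0.0194), beside 0.62% of all genes called. Rps6ka1 was also the regulator most raised in isolates over forebrain (4.63, edgeR adjusted p = 8.99e-14).

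Of 15 genes known to follow the immediate early wave in active neurons, 9 were lower and 6 higher in isolates than in forebrain of control animals, beside 43% and 40.5% of all genes. The lower ones included the secreted-protein genes Pcsk1 (-5.78, edgeR adjusted p = 4.04e-12), Scg2 (-5.75, 5.65e-12) and Bdnf (-3.995, 1.86e-13). The higher ones were Per1, Sik1, Rgs2, Nfil3, Tiparp and Ptgs2, from 2.10 to 3.30. None of the 15 passed in forebrain in the genotype or the antibody experiment, beside 0.62% and 0.717% of all genes called. In KO isolates 1 fell, the G-protein regulator gene Rgs2, at -1.60 (edgeR adjusted p = 0.0347), beside the 5.22% of all genes called lower.

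A further 15 genes reported to respond to the isolation of microglia, none of them a member, were all higher in isolates than in forebrain of control animals (40.5% of all genes were), with a median of 7.99; the range ran from the chaperone gene Hsp90aa1 at 1.92 to the G-protein regulator gene Rgs1 at 12.64. In KO isolates 4 of the 15 fell (Nfkbid, Hspa1a, Hspa1b and Dnajb1) and 0 rose, beside 5.22% of all genes called lower, with a median of -1.33. Their summed level was 6859 to 12517 CPM in Het and 3230.4 to 3744 CPM in KO isolates. Nfkbid, an NF-kB regulator gene, was at -1.36 (edgeR adjusted p = 0.0260) and the heat-shock gene Hspa1a at -1.34 (0.0357). After the antibody 0 of 15 passed in isolates (median -0.59), beside 0.626% of all genes called. The cytokine gene Il1b was at 0.07 and 0.21 in the deletion and antibody experiments (edgeR adjusted p = 0.926 and 0.668). The microglia markers fell in the same KO isolates, as given above.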

How the data were processed

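RNA was measured in 30 libraries of 15 mice, 1 of whole forebrain and 1 of CD11b isolate per mouse, and per the labels' protocols the libraries were made with a Takara SMART-Seq kit for low input. The authors deposited raw read counts per gene for 51752 genes. STAR 2.7.5c, featureCounts 1.6.3, R 4.4.0 and the build GRCm38 are named, without roles, in the submitters' processing notes. The deposited table also gives a length per gene, which equals the GENCODE M21 gene span for 32 of the 34 members, introns included, so reads of genes inside a span can be counted with it. A further 6 count columns and 6 TPM columns matched no labelled sample and were not used, nor was the rest of the TPM table. Animal numbers came from the deposited sample sheet and matched for 30 of 30 libraries.

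Tests were edgeR 4.0.16 quasi-likelihood F tests in R 4.3.3 with TMM scaling, filterByExpr on arm by tissue, sex as covariate and Benjamini-Hochberg adjustment over all genes tested. Isolate against forebrain also had a term for experiment, and the tissue differences had one for sex by tissue. No main fit had a term for the animal. Displayed CPM were scaled by TMM over all 30 libraries. Alternatives were DESeq2 1.42.0, RLE size factors, no filter, no sex term, each animal left out in turn, and the animal as replicate block. The forebrain and isolate of an animal form a true pair: the correlation of their deviations from group means had a median of 0.147 (0.0465 to 0.268) over 15 animals. No pair of replicates agreed within sampling noise (lowest chi-square per degree of freedom 5.48 over 42 pairs). The steps were tested on simulated counts with known changes for some of the comparisons. Recovery of most changes was required in each of these except KO against Het isolates. The members and lists were chosen with earlier results of these data known. Library values are given for Fos, Fosb, Jun, Junb, Egr1, Nr4a1, Atf3, Dusp1, Ier2, Klf2, Arc and Npas4, and full statistics for members past the threshold (up to the 10 of smallest p in each direction) or, where none passed, for the 3 of smallest p; other values were chosen after they were seen. Of the 7 microglia markers used, 6 were found, and 2 further cell type markers are not reported here. Oligodendrocyte, endothelial, neutrophil and monocyte, border macrophage and choroid plexus markers in the isolates are given with the other observations. Promoters are RefSeq's on GRCm38.p6.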

Additional observations from a re-analysis of the deposited data

Results flagged for a closer look

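The deletion effect differed between isolates and forebrain for 3 members, by a test of the difference itself. The difference was -1.30 on the log2 scale for Jun, -1.11 for Dusp6 and -1.17 for Rhob, and each effect was more negative in the isolates. Het and KO forebrains overlapped for Jun, Dusp6 and Rhob, while their isolates did not. With the animal as a replicate block, none of the 3 passed, nor did any other of the 20107 genes. Outlying libraries were sought only for the members listed by library, and not in the KO arm, which had fewer than 4 libraries per preparation. Among 72 groups of 4 libraries, 0 held a library far from the other 3 by Dixon's criterion at 0.829.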

How the results depend on the processing

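Counts of members past the threshold depended on the processing, as did those of all genes. Of 408 estimates (34 members in 12 comparisons), the 75 past the threshold kept their sign under every alternative run, while 92 of the 333 others had the opposite sign under at least 1, never past the threshold there. Of 675 values of named members under alternatives, 597 kept their side of the threshold, 45 lost it and 33 gained it. The share of all genes called in the same fit follows each count. With DESeq2 the count was 14 for KO against Het isolates (24.2%; 4 as reported), 7 for the antibody in isolates (12.2%; 0), 14 for the tissue difference of the deletion effect (22.4%; 3) and 3 for that of the antibody effect (8.86%; 0). For Het against anti-gp120 it was 3 in forebrain (2.13%, 0 as reported) and 2 in isolates (3.9%, 1 as reported). Without a filter on low counts, the deletion gave 4 in forebrain (1.24%, 0 as reported) and 13 in isolates (6.78%), and the antibody 5 in forebrain (1.15%) and 5 in isolates (2.75%). The tissue differences then gave 10 (4.82%) and 6 (4.15%), Het against anti-gp120 17 in forebrain (2.79%) and 2 in isolates (1.28%), and the deletion minus antibody effect 1 in forebrain (0.352%, 0 as reported). Without the sex term, the deletion gave 9 in isolates (12%), the antibody 5 (5.59%) and the tissue difference of the deletion effect 7 (11.9%). RLE size factors gave 2 for the deletion in isolates (4.31%). The causes were not tested.

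The animal as a replicate block brought the tissue difference of the deletion effect from 3 to 0, with 0 of all genes called, and changed no other count by more than 1.5 times. Leaving out 1 animal gave counts of 0 to 1 for the deletion in forebrain, 0 to 25 in isolates, 0 to 20 for the antibody in isolates, 0 to 22 and 0 to 9 for the tissue differences, and 0 to 2 in forebrain and 0 to 1 in isolates for Het against anti-gp120. The tissue difference of the deletion effect reached 22 without Het animal 1 (28.5% of genes) and 8 without Het animal 21 (16.3%), and was 0 without any other 1 animal; that of the antibody effect reached 9 without anti-gp120 animal 15 (29.9%). Low counts limit Dusp2, Cebpb and Atf3 in forebrain, with as few as 4 counts, and Egr4 in isolates.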

Other observations

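The other cells in the isolates were followed by their markers. In control animals all 6 endothelial markers were higher in isolates than in forebrain (median log2 fold change 2.13), as were 6 of the 6 neutrophil and monocyte markers tested (5.36) and all 4 markers of border-associated macrophages (5.26), while 1 of 5 oligodendrocyte lineage markers (0.20) and 2 of 4 choroid plexus markers (1.504) passed, both higher. None of these 5 lists had a marker past the threshold in isolates between KO and Het or between the antibody arms; between the control arms, all 4 choroid plexus markers were higher in Het than in anti-gp120 isolates (median 5.30) and no marker of the other 4 lists passed. In KO against Het isolates their medians were 0.07 for endothelial cells, 0.31 for neutrophils and monocytes, -0.23 for border-associated macrophages, 0.75 for the oligodendrocyte lineage and -0.54 for choroid plexus. After the antibody they were 0.13, 0.79, -0.64, 0.61 and 3.21. For choroid plexus, the anti-gp120 isolates held 3.82 to 6.76 CPM of choroid plexus markers and anti-IL34 isolates 3.43 to 2159 CPM. Neutrophil and monocyte markers summed to 36.5 to 48.7 CPM in Het, 30.5 to 85.7 in KO, 41.1 to 269 in anti-gp120 and 130.5 to 418 in anti-IL34 isolates, with at most 1 of the 7 at 0.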
